A study of Mus musculus with 3 samples.

Results

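The genes described here are nuclear genes of the mitochondrial respiratory chain whose symbols start with Nduf, Uqcr or Atp5. These prefixes mark most subunits of complex I (NADH dehydrogenase), complex III (cytochrome bc1) and complex V (ATP synthase). Members were all features with such a prefix that held at least 50 UMIs (unique molecular identifiers, each counting 1 captured mRNA molecule) over the 3 libraries. Of 31053 features, 71 carried a prefix and 70 were members. The member with the fewest UMIs was Ndufaf5, a complex I assembly factor, with 610, and the 1 feature below the minimum was a second record of Atp5o with 0 UMIs. By role the members were 36 subunits of complex I, 8 assembly factors of complex I, 8 subunits of complex III, 16 genes of complex V, and Ndufa4 with its sister gene Ndufa4l2. Despite their prefix these last genes belong with cytochrome oxidase, complex IV, and they are kept apart below.

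The study profiled islets of Langerhans from 3 female NOD-SCID mice without diabetes, 10 to 11 weeks old, by droplet single-cell RNA sequencing of mRNA 3′ ends, with 1 library per mouse. NOD-SCID mice carry the scid mutation on the diabetes-prone NOD background and lack mature B and T lymphocytes. All 3 mice form 1 group, and no treatment or injury is named in the labels, so each comparison here is between cell classes within the same mice. Islets were freed with collagenase, purified on a density gradient and dissociated with TrypLE, and exocrine and stromal cells came along with the endocrine cells.

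Complex I takes electrons from NADH, complex III passes them from ubiquinol to cytochrome c, and both pump protons out of the mitochondrial matrix. Complex V lets the protons return through a rotating ring of c subunits and makes ATP. In the beta cell this chain links glucose to insulin release, because ATP closes a potassium channel of the plasma membrane. Each complex except complex II is built from nuclear and mitochondrial gene products, and complex I needs many assembly factors that are not part of the finished enzyme.

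The libraries held 32389170, 48076507 and 57849496 UMIs for mice 1, 2 and 3. After filters, 1090, 2609 and 3474 cells remained, with a median of 6048, 5456 and 11395 UMIs. Clustering on marker genes, none of them members, gave 31 clusters, of which 23 were named. The hormone genes (Ins1, Ins2, Iapp, Gcg, Sst, Ppy, Pyy and Ghrl) made up 66.8% to 71.6% of the UMIs of beta-like cells, 44.6% to 47.4% in alpha-like, 27.8% to 29.2% in delta-like and 1.23% to 3.74% in duct-like cells. Levels are therefore given as CPM, the UMIs of a gene scaled to a common library total from which these 8 genes were left out, unless stated otherwise. They are not divided by transcript length, so that CPM values of different genes count captured 3′ ends. The unnamed clusters held 414, 1369 and 426 cells and enter no comparison. The mice filled different clusters of a class: beta-like cells of mouse 3 lay mostly in clusters 13, 16 and 4 and those of mice 1 and 2 in cluster 4, alpha-like cells of mouse 3 mostly in cluster 2 and those of mouse 2 in cluster 8, and delta-like cells of mouse 3 in clusters 6 and 7 and those of mouse 2 in cluster 7. Libraries shared 148, 9 and 13 barcodes pairwise, of which 14, 2 and 4 were kept cells in both.

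Summed over all 70 members, the share of non-hormone UMIs was highest in beta-like cells as a mean over the mice. It was 2.17%, 2.49% and 1.96% in mice 1, 2 and 3. In mouse 1 the dendritic-like class, from 15 cells, lay higher, at 3.17%. In alpha-like cells the share was 1.98%, 1.99% and 1.65%, and in delta-like cells 1.85%, 1.83% and 1.67%. Within each mouse the beta-like share stood above the alpha-like and the delta-like share. The gamma-like cells (the Ppy class, 21, 12 and 239 cells) lay beside the alpha-like cells, at 2.05%, 2.06% and 1.74%. Duct-like cells held 1.80%, 1.75% and 1.65% and pericyte-like cells 1.76%, 1.76% and 1.92%, which overlaps with the alpha-like and delta-like range. Endothelial-like cells held less, 1.32%, 1.34% and 1.26%, and macrophage-like cells 1.28%, 1.09% and 1.13%. Mouse by mouse, the duct-like share lay below every endocrine class, narrowly so in mouse 3 (1.645% against 1.650% in alpha-like cells). The pericyte-like share, which includes Ndufa4l2 described below, did so in mice 1 and 2. In mouse 3 it lay above the alpha-like, delta-like and gamma-like shares. Ducts and pericytes thus lay nearer to the endocrine classes than endothelial-like and macrophage-like cells did. As mean ± SD over the mice the shares were 2.21% ± 0.270 in beta-like, 1.88% ± 0.195 in alpha-like, 1.78% ± 0.0964 in delta-like, 1.73% ± 0.0808 in duct-like, 1.31% ± 0.0424 in endothelial-like and 1.17% ± 0.0968 in macrophage-like cells (n = 3 mice each).

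**Figure D1:**
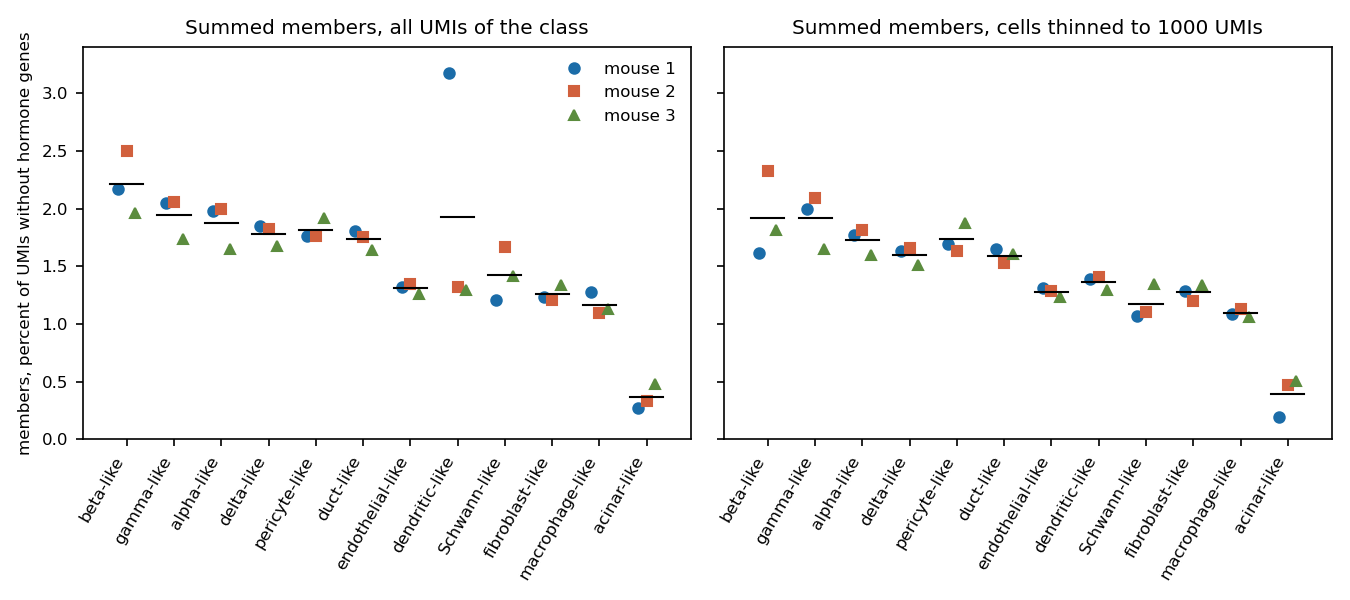
Share of non-hormone UMIs (percent, vertical axis) held by the 70 members in each cell class (horizontal axis), from all UMIs of the class on the left and after thinning each cell to 1000 UMIs on the right. Points are mice and the line is their mean; beta-like cells reach 2.49% in mouse 2 at full depth, and the acinar-like class is at most 0.506% in both panels.

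The within-mouse ratio of the beta-like to the alpha-like share was 1.10, 1.25 and 1.19, and that of beta-like to delta-like was 1.17, 1.37 and 1.17. Alpha-like over delta-like gave 1.07, 1.09 and 0.986, which crosses 1. On the log2 scale the mean ± SD was 0.23 ± 0.10 for beta-like over alpha-like, 0.30 ± 0.13 for beta-like over delta-like and 0.07 ± 0.08 for alpha-like over delta-like. The mean log2 over the beta-like, alpha-like and delta-like classes less that over duct-like, endothelial-like and macrophage-like cells was 0.49 ± 0.10. The order depends on the base of the share: with hormone UMIs counted, beta-like cells held only 0.706%, 0.708% and 0.650%, below the 1.32%, 1.29% and 1.21% of delta-like cells, and all 4 log2 ratios turned negative.

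Acinar-like cells, the enzyme-secreting cells of the exocrine pancreas, had the lowest share, 0.275%, 0.337% and 0.478%. The acinar marker genes, mostly digestive enzymes, took 56.5%, 55.1% and 49.9% of their non-hormone UMIs. A second total left out a wider set of digestive-enzyme and Reg genes and the mitochondrially encoded genes. It also left out the 2 transcripts Gm42418 and AY036118, which overlap ribosomal RNA. On that total the acinar-like share was 2.17%, 2.12% and 2.45%, beside 2.59%, 2.83% and 2.21% in beta-like cells. In the dendritic-like class mouse 1, with 15 cells, stood apart at 3.17% against 1.32% and 1.29%. After thinning to equal depth it was 1.39%, 1.41% and 1.30%. Barcodes under 500 genes held 0.614%, 0.436% and 0.816%, less than any endocrine class.

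At equal depth, with each cell thinned to 1000 non-hormone UMIs, the beta-like share was 1.62%, 2.33% and 1.81%, the alpha-like share 1.77%, 1.81% and 1.60% and the delta-like share 1.63%, 1.66% and 1.51%. In mouse 1 the beta-like cells were then below the alpha-like and delta-like cells, so that the order of these classes was not shared by all mice. They were also below the duct-like (1.65%), pericyte-like (1.69%) and gamma-like cells of that mouse. In mouse 3 the beta-like share was below the pericyte-like share (1.87%), and in mouse 2 it was above that of every other class. As means over the mice, beta-like cells held 1.92% and gamma-like cells 1.91%. The endothelial-like share of 1.31%, 1.29% and 1.23% and the macrophage-like share of 1.09%, 1.13% and 1.06% remained the lowest among the classes compared by test. A thinned beta-like cell showed on average 12.9, 18.1 and 14.6 different members, against 40.0, 57.3 and 45.8 at its own depth. Thinning left out 32 of 833 beta-like, 13 of 1400 alpha-like and 31 of 863 delta-like cells.

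Deeper cells of a class held a larger share of member UMIs. With each class of each mouse split at its median depth, the deeper part was higher in 25 of 29 splits, and in 11 of 11 for the endocrine classes. The widest gap was in beta-like cells of mouse 1, with 1.01% in the shallow and 2.31% in the deep cells (median 2327 and 22698 UMIs). In mouse 2 the same split gave 2.25% and 2.58%, and in mouse 3 1.61% and 2.09%. Thinning draws UMIs at random, so it leaves the expected share of a cell unchanged and gives each kept cell equal weight. The thinned shares therefore cannot show the part of depth in the class differences, which was not tested.

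The member UMIs were divided between the complexes as follows. Complex I subunits took 47.3% ± 0.997 of member UMIs in beta-like, 43.9% ± 0.190 in alpha-like, 46.0% ± 0.0805 in delta-like, 42.0% ± 0.329 in duct-like and 40.8% ± 0.610 in macrophage-like cells (SD, n = 3). Complex V took 36.5% ± 0.598 in beta-like, 40.5% ± 0.199 in alpha-like and 36.6% ± 0.342 in delta-like cells. Complex III took 12.3% to 14.9% as class means over the same 6 classes compared by test below, highest in macrophage-like cells. Ndufa4 and Ndufa4l2 together took from 1.64% in alpha-like to 4.78% in duct-like cells among these classes, and 11.4% in pericyte-like cells. Alpha-like cells thus carried the largest complex V part among the 3 endocrine classes compared by test, with 3 of 3 mice above all beta-like and delta-like values. This was not particular to them. Gamma-like cells, at 39.9%, 39.9% and 39.1%, also lay above all those values, and the macrophage-like mean was 40.1%.

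Per gene, 38 of the 70 members had their highest mean CPM in beta-like cells among the 6 classes tested (beta-like, alpha-like, delta-like, duct-like, endothelial-like and macrophage-like), 15 in duct-like, 7 in alpha-like and 0 in macrophage-like cells. The lowest mean fell in macrophage-like cells for 42 members, in endothelial-like cells for 18 and in beta-like cells for 0. The same count was not made over all genes, so these counts are not set against a background. On this base the median log2 over all genes was itself 0.18 for beta-like against alpha-like cells. It was -0.06 for beta-like against delta-like and 0.38 for endocrine against non-endocrine cells. The members with the most UMIs per complex were Ndufb11 and Ndufa13 for complex I, Uqcrh and Uqcrb for complex III, and Atp5e and Atp5l, the epsilon and g subunits, for complex V. Atp5e reached 1468, 1596 and 1039 CPM in beta-like cells and 1479, 1421 and 948 CPM in alpha-like cells, and 498, 507 and 300.4 CPM in endothelial-like cells. The endothelial-like values did not overlap with either endocrine class.

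**Figure D2:**
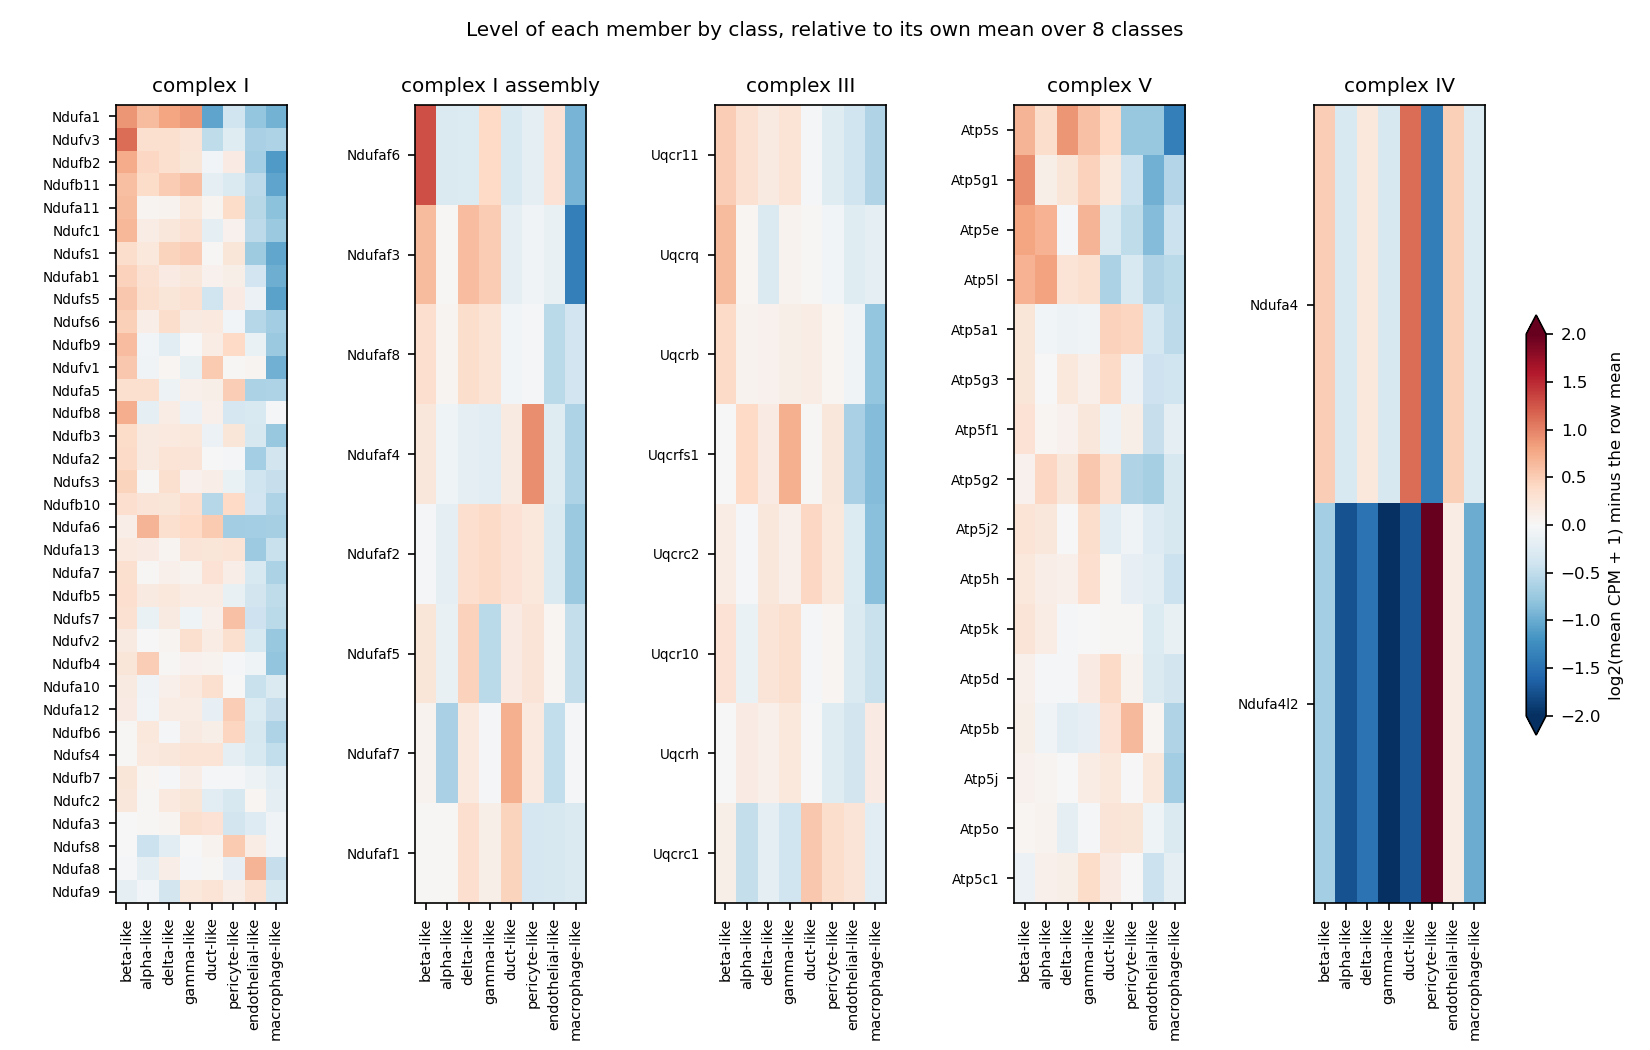
Level of members (rows, grouped by complex) in 8 cell classes (columns), as log2(mean CPM + 1) minus the mean of the row; red is above and blue below that mean, with colours limited at 2 and -2. Ndufaf6 stands out in beta-like cells and Ndufa4l2 in pericyte-like cells, while macrophage-like cells are blue for most rows.

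The 4 comparisons below used edgeR's quasi-likelihood test on summed counts per class and mouse, with the mouse as a block and Benjamini-Hochberg adjustment over all genes tested. "Passed" means an adjusted p under 0.05. The fit scales classes with TMM, which sets the typical gene near 0, so a fitted log2 fold change is relative to the other genes. Without TMM the median over all genes was 0.18 for beta-like against alpha-like, -0.06 for beta-like against delta-like, -0.24 for alpha-like against delta-like and 0.38 for endocrine against non-endocrine. Of the 70 members 69 were tested. Ndufa4l2 fell below the filter on low counts in the 6 classes. The first 3 comparisons share the class sums they are drawn from.

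Between beta-like and alpha-like cells, 14 members were higher in beta-like and 10 lower, with 45 not passing. Of all 12728 genes tested (cell type markers left out), 40.9% passed, 20% higher and 20.9% lower, so the members' 20.3% and 14.5% lay close to or under the background. The median log2 fold change was 0.00 over the members and -0.03 over all genes. Complex I had 7 higher and 5 lower of 36, its assembly factors 3 and 0 of 8, complex III 2 and 2 of 8, and complex V 1 and 3 of 16. Members therefore lay on both sides of 0 between these 2 classes.

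Ndufaf6, an assembly factor of complex I, had a mean of 31.1 CPM in beta-like cells, with 38.7, 29.3 and 25.5 CPM in beta-like and 10.6, 10.3 and 8.76 CPM in alpha-like cells (log2 1.40 ± 0.20, adjusted p = 2.4e-07). The groups did not overlap. Ndufaf7, a methyltransferase needed for complex I assembly, had 25.7, 24.9 and 22.9 CPM in beta-like against 16.3, 14.2 and 13.0 CPM in alpha-like cells (log2 0.58 ± 0.18, adjusted p = 0.0074). Its transcript end resembles a repeat found in 32 other genes, so its counts are uncertain. Ndufv1, the core subunit that oxidises NADH, was higher too (log2 0.40 ± 0.11, adjusted p = 0.0036). Ndufb8 and Ndufv3, accessory subunits of the membrane arm and of the NADH module, were higher by 0.72 ± 0.12 and 0.59 ± 0.12 on the log2 scale (adjusted p 3.8e-06 and 4.9e-05). Ndufb8 shares its transcript end with an overlapping record on the same strand, so its reads may be divided between them.

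Lower in beta-like cells was first Ndufa6, an accessory subunit that docks the acyl carrier protein, with 357, 386 and 322 CPM against 527, 570 and 461 CPM in alpha-like cells (log2 -0.76 ± 0.12, adjusted p = 1.5e-06). Every alpha-like value exceeded every beta-like value. Uqcrfs1, the Rieske iron-sulfur protein of complex III, had 159, 157 and 142 CPM in beta-like and 199, 208 and 202 CPM in alpha-like cells (log2 -0.62 ± 0.12, adjusted p = 3.0e-05). Also lower were Ndufb4 (-0.44 ± 0.12), the rotor subunit gene Atp5c1 (-0.43 ± 0.12) and Ndufb6 (-0.41 ± 0.12), while within complex III the core gene Uqcrc1 (0.40 ± 0.11) was higher. Complexes I and III thus each had subunits that were higher and subunits that were lower.

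Some of these calls depended on the settings. With cells thinned to 1000 UMIs, which leaves fewer counts, 15 of the 24 calls were lost. They were Atp5c1, Atp5g1, Ndufa4, Ndufa9, Ndufaf3, Ndufaf6, Ndufaf7, Ndufb4, Ndufb6, Ndufb9, Ndufs4, Ndufv1, Uqcrc1, Uqcrh and Uqcrq. Without mouse 2, 5 members were higher and 6 lower, and 13 of the 24 calls were lost: Atp5g1, Atp5l, Ndufa11, Ndufa9, Ndufaf3, Ndufaf7, Ndufb9, Ndufc1, Ndufs4, Ndufv1, Uqcrc1, Uqcrh and Uqcrq. Ndufa9, Atp5l and Ndufb4 did not pass without mouse 1, and Uqcrh and Atp5l not without mouse 3. Without TMM 24 were higher and 3 lower, with all genes at 30.4% and 13.7%, and 7 calls were lost, all of them lower in beta-like cells, among them Ndufb4, Atp5c1 and Ndufb6, which kept their sign.

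**Figure D3:**
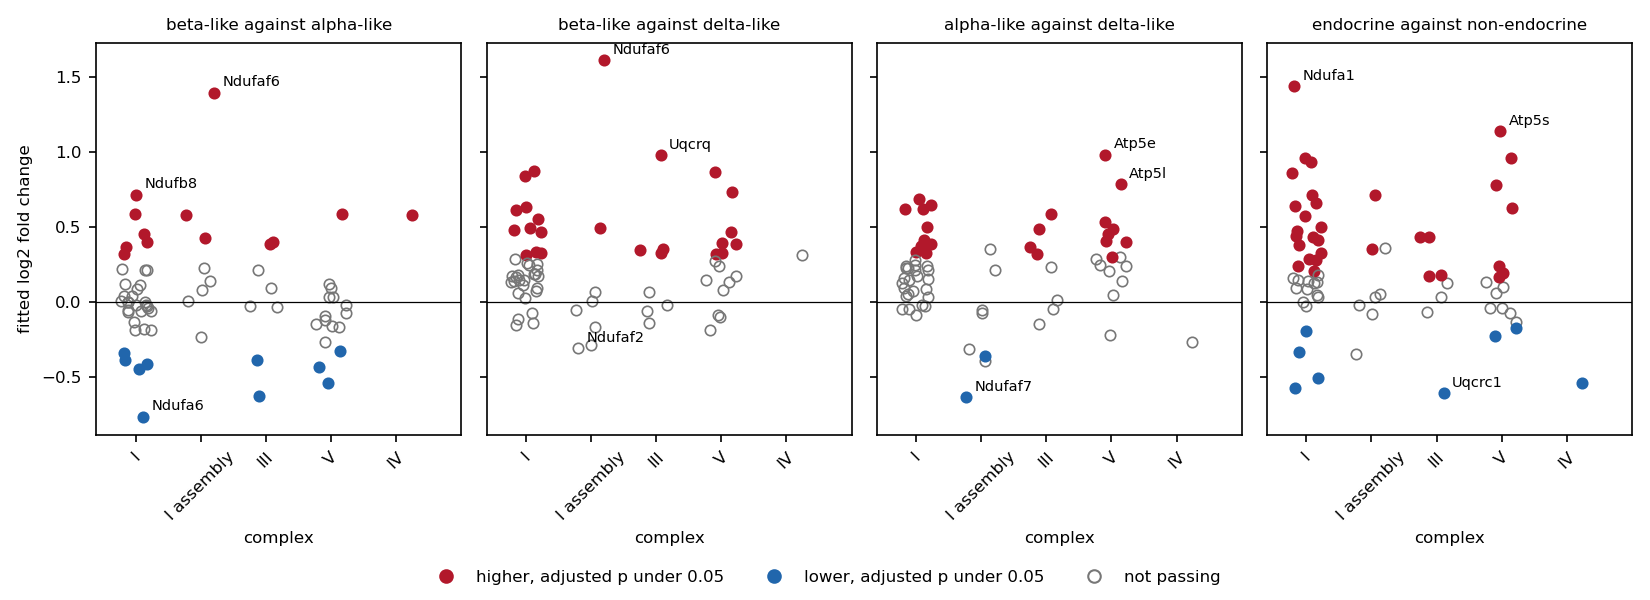
Fitted log2 fold change (vertical axis) of members in the 4 comparisons, grouped by complex (horizontal axis, with a random sideways shift to separate points). Filled red and blue points passed at an adjusted p under 0.05 as higher and lower; beta-like against alpha-like shows points of both colours, and beta-like against delta-like 0 blue points.

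Against delta-like cells, the somatostatin cells, 25 members were higher in beta-like cells and 0 were lower by edgeR, with 0 lower at an unadjusted p under 0.05 as well. DESeq2 called 1 lower, Atp5c1. Of all genes, 37.5% passed in this comparison, 18.6% higher and 18.9% lower, and the members' median was 0.19 against -0.02 over all genes. By complex, 12 of 36 complex I subunits, 2 of 8 assembly factors, 4 of 8 complex III subunits and 7 of 16 complex V genes were higher.

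Ndufaf6 was higher in this comparison as well (log2 1.61 ± 0.24, adjusted p = 3.2e-07). Uqcrq is a small subunit of complex III that binds ubiquinone. Its level was 513, 588 and 427 CPM in beta-like and 296, 275 and 229.8 CPM in delta-like cells, without overlap (log2 0.98 ± 0.13, adjusted p = 1.8e-08). Ndufb9 had 412, 480 and 411 CPM against 237, 241 and 257 CPM (log2 0.87 ± 0.13, adjusted p = 3.4e-07). It too overlaps another record on its strand. Atp5e was higher by 0.87 ± 0.14 and Ndufv3 by 0.84 ± 0.12. The catalytic pair of complex V, Atp5a1 and Atp5b, was also higher, by 0.40 ± 0.12 and 0.39 ± 0.12. Without mouse 2 the count was 11 higher and 1 lower, and 14 of the 25 calls were lost: Atp5a1, Atp5b, Atp5j2, Atp5k, Atp5l, Ndufa5, Ndufab1, Ndufaf4, Ndufb7, Ndufc1, Ndufs5, Uqcr11, Uqcrb and Uqcrc1. Without mouse 1 the 5 calls of Atp5k, Ndufab1, Ndufb7, Ndufs5 and Uqcrb were lost, and without mouse 3 the 5 of Atp5j2, Ndufaf4, Ndufb7, Uqcr11 and Uqcrc1. Without the mouse block the count was 10 higher and 0 lower. With cells thinned to 1000 UMIs, 17 of the 25 calls were lost, those of Ndufaf6, Atp5a1 and Atp5b among them.

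Alpha-like cells, compared with delta-like cells, had 24 members higher and 2 lower. Over all genes 33.1% passed, 16.9% higher and 16.2% lower, and the median was 0.23 for the members and 0.01 for all genes. Complex V had 8 of 16 higher, complex III 4 of 8 and complex I 12 of 36. Atp5e led with 1479, 1421 and 948 CPM in alpha-like against 913, 814 and 595 CPM in delta-like cells (log2 0.99 ± 0.14, adjusted p = 1.6e-07). The lowest alpha-like value, that of mouse 3, lay just above the highest delta-like value, that of mouse 1. Also higher were Atp5l (0.79 ± 0.12), Ndufb4 (0.69 ± 0.13), Ndufa5 (0.65 ± 0.12) and Ndufa9 (0.62 ± 0.14). Those that were lower were both assembly factors, Ndufaf7 (-0.63 ± 0.19) and Ndufaf3 (-0.36 ± 0.13), the latter a partner of Ndufaf4 in building the ubiquinone module.

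This comparison was the one most tied to the scaling. Without TMM 8 members were higher and 13 lower, the members' median was -0.03, and all genes split 9.29% to 30.0%. Atp5e, Atp5l, Ndufb4, Ndufa5 and Ndufa9 passed as higher in that fit too. Without mouse 2 there were 9 higher and 1 lower, and 16 of the 26 calls were lost: Atp5a1, Atp5b, Atp5g2, Atp5j2, Atp5k, Ndufa13, Ndufab1, Ndufaf3, Ndufb2, Ndufb6, Ndufb7, Ndufb9, Ndufs5, Uqcr11, Uqcrfs1 and Uqcrh. Without mouse 3, 9 calls were lost, those of Ndufaf3 and Ndufaf7 among them, and without mouse 1, 5 were lost. With cells thinned to 1000 UMIs, 20 of the 26 calls were lost, among them Ndufb4, Ndufa9, Ndufaf3 and Ndufaf7.

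The endocrine classes (beta-like, alpha-like and delta-like, weighted equally) were compared with the non-endocrine ones (duct-like, endothelial-like and macrophage-like). Higher in endocrine cells were 33 members and lower 8, while 63.0% of all genes passed, 38.0% higher and 25% lower. The members' median was 0.17 and that of all genes 0.15. Complex I contributed 20 higher and 4 lower of 36, complex III 4 and 1 of 8, complex V 7 and 2 of 16, and the assembly factors 2 and 0 of 8.

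Ndufa1, a small membrane subunit of complex I encoded on the X chromosome, showed the largest difference. Beta-like cells had 532, 616 and 281 CPM, alpha-like 444, 507 and 240.1 CPM and delta-like 530, 522 and 276 CPM. Duct-like cells had 138, 138 and 95.6 CPM, endothelial-like 165, 183 and 102 CPM and macrophage-like 154, 157 and 89.2 CPM. In each mouse every endocrine value exceeded every non-endocrine value, although mouse 3 was low in all 6 classes. The fitted log2 difference was 1.44 ± 0.08, 2.72-fold, with an adjusted p of 2.2e-19. Duct-like cells, whose summed share was close to that of delta-like cells, thus had the lowest Ndufa1 mean, 124 CPM.

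Atp5s, a coupling factor, was higher by 1.14 ± 0.22, present at 18.3 against 9.19 CPM on the fitted scale. Ndufv3 (0.97 ± 0.08), Atp5l (0.96 ± 0.08), Ndufb2 (0.94 ± 0.08) and Ndufb11 (0.86 ± 0.08) followed, all higher in 3 of 3 mice. Atp5l has 12 genes with a near-identical transcript end, 11 of them pseudogenes. Ndufb2 shares its end with an overlapping record.

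The 8 members lower in endocrine cells were led by Uqcrc1, the core subunit of complex III. It had 107, 115 and 136 CPM in beta-like, 80.1, 65.5 and 90.1 CPM in alpha-like, 154, 145 and 181 CPM in duct-like and 127, 109 and 161 CPM in endothelial-like cells (log2 -0.61 ± 0.08, adjusted p = 6.8e-09). Macrophage-like cells, at 95.1, 89.6 and 101 CPM, did not share this level and lay within the endocrine range. Ndufa9 (-0.57 ± 0.10), Ndufa4 (-0.54 ± 0.08), Ndufs8 (-0.50 ± 0.08), Ndufa8 (-0.33 ± 0.08) and Atp5o (-0.23 ± 0.09) were also lower. Without TMM 55 members were higher and 4 lower, with all genes at 48.1% and 19.2%. In that fit Ndufa8 did not pass and Atp5o turned to 0.01, and without mouse 3 Atp5o did not pass. Leaving out mouse 1, 2 or 3 cost 6, 10 and 8 of the 41 calls. Thinning cells to 1000 UMIs cost 23, among them Uqcrc1, Atp5s, Ndufa8 and Atp5o.

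The c ring of complex V is made from 3 genes, Atp5g1, Atp5g2 and Atp5g3, which encode the same mature protein behind different import sequences. Their promoters are shown because the genes supply the same subunit, but Atp5g1 and Atp5g2 differed between beta-like and alpha-like cells. Atp5g3 did not pass there. Each runs from 250 bases before to 30 bases after the RefSeq start, read 5′ to 3′ on the minus strand of GRCm38.p6. Atp5g1 is at chr11:96075602-96075881, Atp5g2 at chr15:102671018-102671297 and Atp5g3 at chr2:73911297-73911576. Capitals mark matches to CACGTG, an E-box, or to the palindromic 10-letter motif of nuclear respiratory factor 1 (NRF1), on either strand.
Atp5g1: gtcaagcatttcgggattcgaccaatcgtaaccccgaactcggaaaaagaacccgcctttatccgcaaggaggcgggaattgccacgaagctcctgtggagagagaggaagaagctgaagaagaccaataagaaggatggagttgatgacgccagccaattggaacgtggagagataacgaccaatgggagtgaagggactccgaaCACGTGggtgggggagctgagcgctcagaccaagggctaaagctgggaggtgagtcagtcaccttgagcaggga
Atp5g2: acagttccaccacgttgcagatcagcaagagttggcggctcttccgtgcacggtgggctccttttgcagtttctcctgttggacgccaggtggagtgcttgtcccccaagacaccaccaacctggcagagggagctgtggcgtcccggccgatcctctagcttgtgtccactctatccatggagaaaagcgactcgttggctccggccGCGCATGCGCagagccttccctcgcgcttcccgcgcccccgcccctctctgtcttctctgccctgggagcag
Atp5g3: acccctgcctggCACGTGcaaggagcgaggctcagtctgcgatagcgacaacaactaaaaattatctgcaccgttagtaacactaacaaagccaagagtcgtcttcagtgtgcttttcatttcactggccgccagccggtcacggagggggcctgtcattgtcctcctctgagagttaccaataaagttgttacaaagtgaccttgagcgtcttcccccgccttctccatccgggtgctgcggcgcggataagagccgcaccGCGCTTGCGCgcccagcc
The Atp5g1 window held an E-box at -44 and no NRF1 match, that of Atp5g2 an NRF1 match at -42, and that of Atp5g3 both, at 13 (NRF1) and -238 (E-box), with positions counted from the start site.

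Atp5g1 was at 622, 767 and 526 CPM in beta-like cells, against 369, 375 and 352 CPM in alpha-like and 412, 424 and 354 CPM in delta-like cells. The beta-like values lay above both other classes (log2 0.59 ± 0.15 and 0.73 ± 0.15, adjusted p 0.0020 and 2.3e-04). The first difference did not pass without mouse 2 or with cells thinned to 1000 UMIs. Atp5g2 ran the other way against alpha-like cells, with 506, 618 and 660 CPM in beta-like and 693, 732 and 804 CPM in alpha-like cells (log2 -0.54 ± 0.13, adjusted p = 5.3e-04). Against delta-like cells, at 569, 644 and 741 CPM, Atp5g2 differed by -0.08 ± 0.13 and did not pass. Atp5g3 had 246, 264 and 212 CPM in beta-like and 212, 216 and 179.6 CPM in alpha-like cells and passed in no comparison.

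As a share of the UMIs of all 3 genes, Atp5g1 made up 45.3%, 46.5% and 37.7% in beta-like cells, 29.0%, 28.3% and 26.4% in alpha-like cells and 33.2%, 32.7% and 27.1% in delta-like cells. It was 28.6%, 29.2% and 29.0% in duct-like and 24.3%, 24.7% and 27.3% in endothelial-like cells. The beta-like values lay above those of these 4 classes. They did not lie above all classes: acinar-like cells had 49.3%, 45.3% and 44.2%, Schwann-like cells 39.1%, 50.6% and 33.5%, and fibroblast-like cells 26.9%, 38.6% and 43.1%, the last 2 classes from few cells. Together the 3 genes reached 1375, 1650 and 1398 CPM in beta-like and 1275, 1323 and 1336 CPM in alpha-like cells, a smaller gap than that of Atp5g1 alone. Atp5g1 and Atp5g2 have 2 pseudogenes each with a near-identical transcript end, none of them in the feature list.

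Pericyte-like cells, the contractile cells around capillaries, held more Ndufa4l2 than Ndufa4 UMIs. Ndufa4l2, a hypoxia-inducible sister of Ndufa4, had 1374, 2222 and 2189 CPM there, from 182, 336 and 938 UMIs. Fibroblast-like cells, of which there were 6, 13 and 42, had 255, 270 and 347 CPM. In beta-like cells it had 5.13, 0.191 and 0.504 CPM and in endothelial-like cells 0, 6.92 and 5.78 CPM. At 1000 UMIs per cell, 66.7%, 85.7% and 83.5% of pericyte-like cells had an Ndufa4l2 UMI (93.3%, 100% and 94.0% at full depth), against 2.0%, 0% and 0.259% of beta-like cells (5.92%, 0.372% and 0.485% at full depth). Since Ndufa4l2 was among the 10 leading genes of the pericyte-like cluster, its level there is a description and was not tested.

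Ndufa4 had its lowest mean in the same cells, at 196, 86.0 and 156 CPM, against 853, 907 and 728 CPM in duct-like and 547, 607 and 446 CPM in endothelial-like cells, apart from the acinar-like class at 50.7, 82.4 and 66.8 CPM. Of the UMIs of both genes, Ndufa4l2 took 87.5%, 96.3% and 93.3% in pericyte-like, 43.6%, 58.1% and 50.6% in fibroblast-like and at most 1.28% in the 6 tested classes. Without Ndufa4l2 the summed share of pericyte-like cells was 1.63%, 1.54% and 1.70%, and that of beta-like cells was 2.17%, 2.49% and 1.96%. Ndufa4 was also higher in beta-like cells against alpha-like cells, with 579, 653 and 389 CPM against 356, 333 and 241 CPM (log2 0.58 ± 0.13, adjusted p = 2.7e-04). That difference did not pass with cells thinned to 1000 UMIs.

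**Figure D4:**
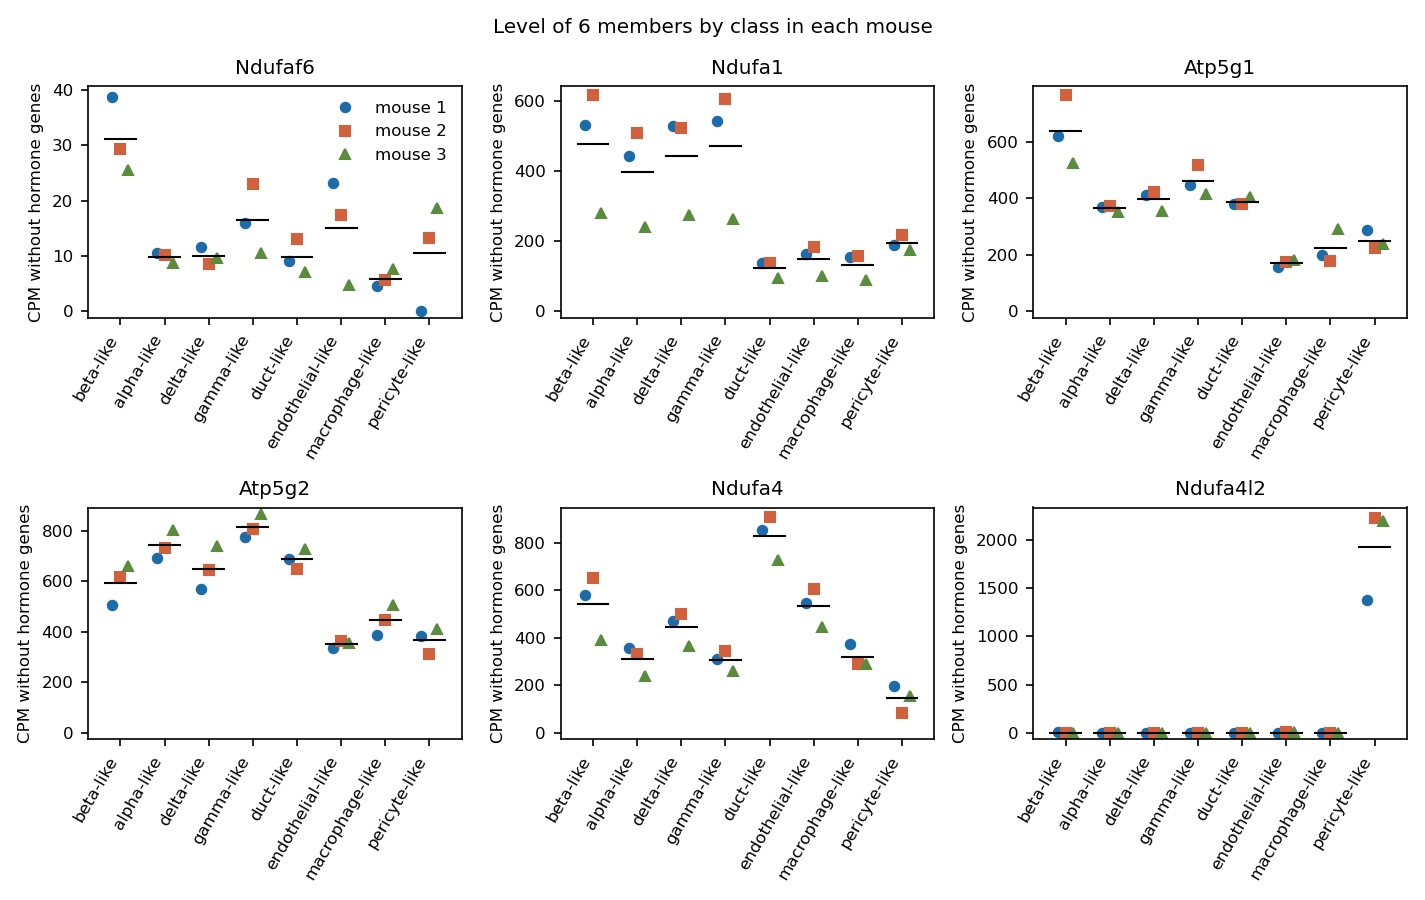
CPM without hormone genes (vertical axes, linear) of 6 members in 8 cell classes (horizontal axes), with a point for each mouse and a line at their mean. Ndufaf6 is high in beta-like cells, Ndufa1 in the endocrine classes, and Ndufa4l2 reaches 2222 CPM in pericyte-like cells where Ndufa4 is at most 196 CPM.

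The mice differed in many members in the same way in every class. Of the 65 members with a mean of at least 20 CPM, 23 were lower in mouse 3 than in the mean of mice 1 and 2 in all 6 tested classes, and 11 were higher in all 6. Over all 6884 genes of that level the shares were 5.16% and 16.4%, against 35.4% and 16.9% of the members. Atp5k, the e subunit of complex V, was lowest with a mean log2 ratio of -1.05 on the log2(CPM + 1) scale, followed by Ndufb2 (-0.89), Ndufa1 (-0.84), Ndufa3 (-0.83) and Uqcr11 (-0.74). At the other end stood Ndufaf3 (0.46) and the core subunits Ndufs7 (0.43) and Ndufs8 (0.31). All classes of a mouse share a library, so this is 1 library against 2, and mouse and library cannot be told apart. The comparisons between classes were made within mice.

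**Figure D5:**
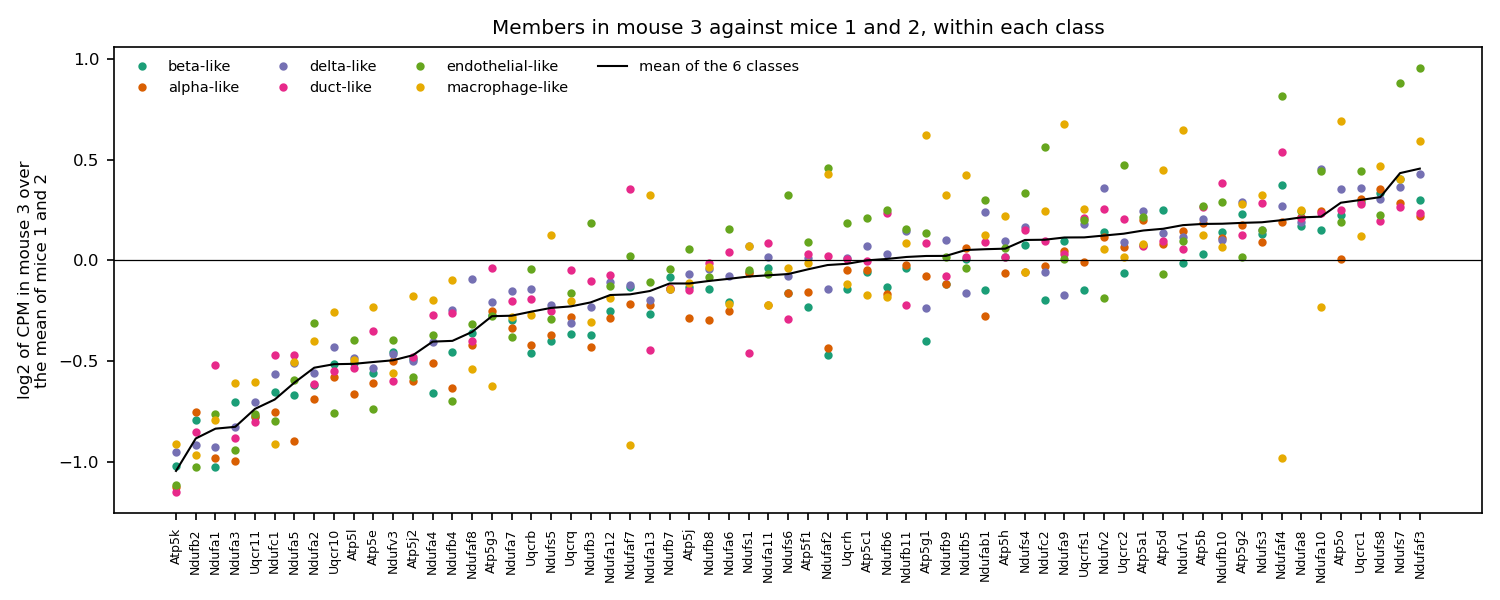
log2 ratio of CPM in mouse 3 to the mean of mice 1 and 2 (vertical axis) for members (horizontal axis, in order of their mean), with a coloured point for each of 6 classes. At the left end, from Atp5k at a mean of -1.05 onward, all 6 classes lie below 0.

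Promoter windows of 300 bases were found in RefSeq (GRCm38.p6) for 58 of the 70 members, with 63 windows in all, beside 32851 windows in the whole table. The NRF1 motif was present, on either strand, in 27.0% of the members' windows and 4.60% of all windows. The ETS motif CCGGAAG was in 20.6% and 8.86%, the 10-letter YY1 motif in 9.52% and 0.852%, and the E-box CACGTG in 9.52% and 7.15%. NRF1, ETS factors such as GABPA, and YY1 are known regulators of respiratory chain genes. These are counts of letters in a window, with no measured binding. The NRF1 motif was found in the windows of Uqcrc1 and Ndufa11, higher in beta-like cells against alpha-like cells. It was also in those of Ndufa6, Ndufb4, Atp5c1 and Atp5g2, which were lower. The other members with this motif did not pass in that comparison.

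Other genes of the pathway were read in the same fit, from lists chosen with earlier results of these data known. Of the 13 subunits encoded in mitochondrial DNA, 8 were higher when beta-like were compared with alpha-like cells, 12 for beta-like against delta-like cells, 8 for alpha-like against delta-like cells and 8 for endocrine against non-endocrine cells, and the other 5, 1, 5 and 5 did not pass. Their medians were 0.45, 0.90, 0.53 and 0.25, each above that of the 69 members. Their summed share was 9.90%, 8.12% and 10.0% of non-hormone UMIs in beta-like and 6.14%, 5.48% and 6.31% in alpha-like cells. The filter on mitochondrial UMIs was set on all UMIs, hormones included, so these levels depend on it.

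Complex IV and cytochrome c had 14 genes tested, with 3 higher and 2 lower in beta-like against alpha-like cells, 11 and 0 against delta-like cells, 6 and 0 between alpha-like and delta-like cells, and 7 and 3 in endocrine against non-endocrine cells. Cox5a was lower in endocrine cells (-1.47 ± 0.10). Complex II, the succinate dehydrogenase, had 1 higher and 1 lower of 4 in beta-like against alpha-like cells: Sdha was higher (0.52 ± 0.12) and Sdhd lower (-0.55 ± 0.11). It had 3 and 0, 1 and 1, and 1 and 1 in the other comparisons, in the same order. Among genes of complexes III and V without the 3 prefixes (12 tested), 3 and 2, 3 and 0, 4 and 0, and 4 and 1 were higher and lower. Uqcc2, an assembly factor of complex III, was higher in endocrine cells by 1.86 ± 0.08.

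The list for complex I assembly without the prefix (9 tested) gave 1 and 1, 1 and 0, 1 and 1, and 5 and 1. It includes Cox7a2l, which was also counted with complex IV and cytochrome c. Cox7a2l was the gene higher in beta-like cells against alpha-like cells (0.79 ± 0.13) and against delta-like cells (0.81 ± 0.13). Of the 6 carriers and channels for ATP, ADP and phosphate, 1 was higher and 2 lower in beta-like cells against alpha-like cells, 3 and 0 against delta-like cells, 3 and 0 between alpha-like and delta-like cells, and 2 and 4 in endocrine against non-endocrine cells. The ADP/ATP carrier Slc25a5 was higher in alpha-like than delta-like cells by 1.47 ± 0.14 and the outer-membrane channel Vdac1 higher in beta-like cells against delta-like cells by 1.36 ± 0.12. The citrate cycle list (16 tested) also held the pyruvate dehydrogenase genes Pdha1, Pdhb and Dlat. It had 2 and 2, 7 and 1, 4 and 0, and 8 and 2, led by Idh2, which was higher in beta-like cells against alpha-like cells by 1.25 ± 0.13. Of 8 regulators tested, 0 were higher and 2 lower between beta-like and alpha-like cells, with 1 and 0, 2 and 0, and 1 and 1 in the others. The coactivator Ppargc1a was lower in beta-like cells (-3.82 ± 0.50), at 0.423 against 7.44 CPM on the fitted scale. All list counts are by edgeR; where a count was 0, at an unadjusted p under 0.05 it was also 0, except for 2 genes of complexes III and V, 1 of the citrate cycle and 1 mitochondrial DNA gene, all lower in alpha-like than delta-like cells, and 1 regulator lower in beta-like than delta-like cells.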

How the data were processed

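The authors deposited UMI counts per gene and barcode, per the file headers unnormalised whole numbers. Cell Ranger 2.2 and mm10 are named in the submitters' processing notes, whereas software version 3.1.0 stands in the matrix headers; aligner settings and the counting strand are not given in the sources used here. Barcodes under 500 genes or above 15% mitochondrial UMIs were dropped, and the highest Scrublet scores were removed as doublets at 0.8% per 1000 barcodes of a library (55, 96 and 166 barcodes). Cells were clustered on 134 marker genes of 18 cell types with the members left out (20 components, 20 neighbours, Leiden resolution 1; scanpy 1.11.5), and a cluster was named where 1 type alone had the most markers among its 30 leading genes, at least 3 of them, with at least 1 in the first 10 and no other type ahead there, and at least 3 markers at 2-fold or more. A difference from other annotations may come from these rebuilt names.

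Counts without the 8 hormone genes were summed per class and mouse for 6 classes holding 20 or more cells in each of the mice, and tested with edgeR 4.0.16 (limma 3.58.1, R 4.3.3) with TMM and the mouse as a block. The classes of a mouse come from the same animal; deviations of same-mouse classes correlated at 0.0993 to 0.818 (44 of 45 over 0.1) and those of different mice at -0.736 to 0.203. With this block, differences between mice that all classes share are removed. The p-values rest on how class differences vary between these 3 mice. That spread is estimated over all 6 classes and moderated across genes. SE is the fold change over the root of F. On simulated data for beta-like against alpha-like cells (12063 genes), the test recovered 98% of 100 genes changed by 1 and 100% of 100 changed by 2 on the log2 scale, with 5.71% false calls. The simulated counts had a single fixed dispersion and no mouse effect. Apart from the changed genes, every class had the same mean profile, and only well-counted genes were changed. These rates therefore need not hold for the measured counts. DESeq2 1.42.0, other scalings, filters, thinning, clusters and left-out mice were alternatives. Like transcript ends were searched with BLAST+ 2.17.0.

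Named members were up to 6 per direction and comparison with the largest changes (all 3 mice alike, at least 20 CPM), the 2 highest of each complex, the sister genes, and up to 6 with the widest range over classes; other genes named only as examples of a list or a call fall outside this rule and were chosen after their values were seen. The members and lists were chosen with earlier results of these data known. The values of 1 member are not reported here and it is not drawn in the plots; it is part of the sums and counts.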

Additional observations from a re-analysis of the deposited data

How the results depend on the processing

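With hormone genes kept in the total, the log2 ratios of the summed member share reversed, to -0.55 for beta-like against alpha-like, -0.89 for beta-like against delta-like, -0.34 for alpha-like against delta-like and -0.47 for endocrine against non-endocrine cells, since hormone UMIs then enter the denominator. Thinning moved the first ratio to 0.14, and leaving out a mouse kept the 4 ratios within 0.19 to 0.29, 0.23 to 0.34, 0.04 to 0.11 and 0.43 to 0.54. Counts of members called are given as higher and lower in the same order of comparisons. Without TMM they were 24 and 3 for the first, 8 and 13 for the third and 55 and 4 for the last. With no replicate block, which ignores that the classes come from the same mice, they were 9 and 6, 10 and 0, 11 and 1, and 25 and 5. Thinned cells, with fewer UMIs, gave 5 and 4, 8 and 0, 6 and 0, and 15 and 4. Leaving out a mouse gave 5 to 14 and 6 to 10, 11 to 21 and 0 to 1, 9 to 19 and 0 to 2, and 24 to 28 and 5 to 8. In beta-like against delta-like cells 1 was lower with DESeq2, with only the classes compared and with at most 10% mitochondrial UMIs. In alpha-like against delta-like cells 4 were lower with only the classes compared and 1 with clusters from the 2000 most variable genes. The cause was not tested for these counts. Of 1082 alternative values for the 74 called values of named members, 936 kept direction and call, 143 kept the direction only and 3 reversed: Ndufaf3 (beta-like against alpha-like, thinned, -0.34), Uqcrb (endocrine against non-endocrine, thinned, -0.14) and Atp5o (the same comparison, no TMM, 0.01). Of the called values, 28 passed under every alternative run. With 3 mice, small differences cannot be resolved, and ambient RNA was not removed.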
